A study of Mus musculus with 35 samples.

Results

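Short interspersed elements (SINEs) are the repeats described here, as RNA and as small RNA of mouse male germ cells with and without SMG6. The 35 members are the subfamilies classed as SINE in the repeat counts of spermatocytes, round spermatids and chromatoid bodies (CBs), of 1146 repeat subfamilies counted. Each had at least 10 counts in total in each of these tables. They comprise 16 B1 subfamilies, 5 B2 subfamilies, 4 B4 subfamilies, 4 ID subfamilies and 6 old SINEs (MIR, MIRb, MIRc, MIR3, AmnSINE1 and AmnSINE2). All 35 names were also found among the 1489 repeats of the small RNA counts. One further repeat with an uncertain SINE class was left out.

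The Smg6-cKO mice were Smg6(fx/fx);Ngn3Cre+, in which Cre driven by the Neurogenin 3 promoter removes exon 9 of Smg6 in germ cells. The controls (CTRL) were littermates without Cre, Smg6(fx/fx);Ngn3Cre- or Smg6(fx/wt);Ngn3Cre-, so that floxed Smg6 was shared by both genotypes. All mice were adult and of a mixed C57Bl/6J and SV129 background, and no exact age is given. Pachytene spermatocytes (Spc) and round spermatids (RS) were separated by sedimentation, and their poly(A)-containing RNA was sequenced in 3 libraries per genotype. CBs are RNA-rich granules of haploid germ cells. They were isolated with anti-DDX4 from pooled mice, and their total RNA was sequenced in 4 control and 3 cKO libraries. Small RNA was sequenced in 5 spermatocyte and 3 round spermatid libraries per genotype. The sources differ on how many testes went into a fraction and on how many spermatocyte small RNA libraries are separate samples, so p-values measure the spread between these libraries. The libraries are numbered here only to name them.

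SINEs are short repeats that RNA polymerase III transcribes and that spread with the enzymes of LINE elements. B1 elements derive from 7SL RNA, the RNA of the signal recognition particle. B2, B4, ID and MIR elements carry tRNA-like heads with an internal polymerase III promoter, and ID elements are related to the neuronal RNA BC1. Copies also lie inside introns and exons of genes, so a read on a SINE can stem from its own transcript or from a longer RNA that holds a copy. The counts do not separate these sources. MIR and the AmnSINE elements are remnants shared by mammals, whereas B1 and B2 subfamilies such as B1_Mm and B2_Mm1a are young in the mouse. Male germ cells also load small RNAs that match repeats onto PIWI proteins as piRNAs.

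Bc1 is shown because it is the RNA to which ID elements are related. It was read 5′ to 3′ from the GRCm38.p6 genome at the RefSeq annotation. Bc1 is a noncoding RNA gene at chr7:144914470-144914623 on the plus strand, 154 bases long. Capitals mark GTTCGNNNC, letters of the second promoter box (box B) of tRNA-type polymerase III genes, searched on both strands.
Bc1: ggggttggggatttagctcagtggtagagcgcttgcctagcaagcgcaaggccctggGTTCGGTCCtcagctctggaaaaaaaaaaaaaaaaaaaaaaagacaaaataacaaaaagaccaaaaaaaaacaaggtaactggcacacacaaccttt
Bc1 holds 1 match, at bases 58 to 66 of the plus strand. Of 32851 RefSeq promoter windows, 1481 (4.51%) hold the letters on either strand. Consensus sequences of the subfamilies themselves were not used here. A match is a description of letters and not a site. Bc1 had 2 counts over the 6 spermatocyte libraries, 1 over the 6 round spermatid libraries and 2 over the 7 CB libraries, all under a floor of 3 counts. Rn4.5s, a 4.5S RNA related to B1, had 13 spermatocyte counts, 2 round spermatid counts and 106 CB counts, of which 65 were in control CB library 2.

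Spermatocyte and round spermatid libraries held 38129415 to 49940226 counts on genes and repeats, CB libraries 3965541 to 16699210, and small RNA libraries 1129049 to 2807532 counts on repeats. SINEs took 1.61 to 2.2% of all spermatocyte counts, 1.24 to 1.89% of round spermatid counts and 6.49 to 12.6% of CB counts, and 18 to 20.3% of the small RNA counts on repeats. Normalized Smg6 counts were 5208 to 8293 in control and 8168 to 8542 in cKO spermatocytes, 5541 to 9057 and 7675 to 8189 in round spermatids, and 1618 to 1837 and 1444 to 1801 in CBs. These counts are over the whole gene and do not test the loss of exon 9. The genotypes also differed in the marker RNA of several cell types. The 10 late spermatid markers summed to 22549 to 27890 CPM (counts scaled to a common library total) in control and 2176 to 2332 CPM in cKO round spermatids, to 4057 to 7902 and 468 to 1472 CPM in spermatocytes, and to 1706 to 4297 and 282 to 398 CPM in CBs. The 8 macrophage markers summed to 22.0 to 29.9 CPM in control and 194 to 323 CPM in cKO round spermatids, to 31.7 to 44.7 and 42.6 to 63.1 CPM in spermatocytes, and to 9.3 to 12.6 and 10.4 to 55.9 CPM in CBs. In spermatocytes 7 of these markers were higher in cKO (edgeR adjusted p at most 0.05), and Mrc1 was lower at -1.20 (SE 0.30). Over all features 13.2% were higher and 12.9% lower. The 6 Leydig markers summed to 112 to 381 CPM in control and 538 to 1144 CPM in cKO spermatocytes, to 5.58 to 6.14 and 31.2 to 333 CPM in round spermatids, and to 10.3 to 35.1 and 29.6 to 289 CPM in CBs. The 8 Sertoli markers summed to 11.1 to 14.0 CPM in control and 20.8 to 60.8 CPM in cKO round spermatids, to 72.9 to 188 and 24.7 to 52.9 CPM in spermatocytes, and to 7.73 to 10 and 12.2 to 19.1 CPM in CBs. The 7 erythroid markers summed to 21.5 to 24.5 CPM in control and 98.6 to 397 CPM in cKO round spermatids, and to 12 to 23 and 1.8 to 4.29 CPM in spermatocytes. Of 5 tested in spermatocytes, 1 was lower and 0 higher, Alas2 at -3.96 (SE 0.39, edgeR adjusted p = 0.00138). The globins did not pass there, with Hba-a1 at 0.47 and Hbb-b1 at -0.11. Hba-a1 and Hba-a2, Hbb-b1 and Hbb-bs, and Hbb-b2 and Hbb-bt had equal values, so the sums may count the same reads again. The 10 spermatocyte markers summed to 3709 to 4504 CPM in spermatocytes, and to 1852 to 2095 CPM in control and 2511 to 2784 CPM in cKO round spermatids. The 10 round spermatid markers summed to 3936 to 4030 CPM in control and 2038 to 2212 CPM in cKO round spermatids, to 1717 to 2293 and 1372 to 1611 CPM in spermatocytes, and to 527 to 768 and 194 to 282 CPM in CBs. The round spermatid sum of cKO round spermatids overlapped that of control spermatocytes and lay above that of cKO spermatocytes. Sums of different lists are not on a common scale. From cKO spermatocytes to cKO round spermatids, 8 of 10 spermatocyte markers were lower and 2 higher (edgeR adjusted p at most 0.05). Of 10 round spermatid markers 7 were higher and 1 lower, and of 10 late spermatid markers 6 higher and 0 lower. Over all features 25.4% were lower and 18% higher. The part of the marked cell types in the results on SINEs was not tested, and fewer cells of a type and less RNA per cell cannot be told apart. Spermatocyte cKO library 1, round spermatid cKO library 3 and control CB library 2 stood apart in SINE level and are given with the results they touch.

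The first question was whether SINE RNA differed between Smg6-cKO and control spermatocytes. B2_Mm1a, a young B2 subfamily, was the 1 of 35 SINE subfamilies that was higher in cKO spermatocytes, and 0 were lower. Its normalized count (count scaled to library size and RNA composition) was 16205, 16733 and 16388 in the control libraries and 19171, 21801 and 21048 in the cKO libraries. Every cKO library lay above every control library. Such separation of groups was not counted over all features and is given throughout as a description. The log2 fold change of B2_Mm1a was 0.33 (SE 0.07, edgeR adjusted p = 0.0173). Its relative B2_Mm1t had 17797, 17465 and 17855 in control and 18532, 21930 and 21171 in cKO. These groups did not overlap either, but the log2 fold change of 0.21 (SE 0.08) did not pass the threshold (edgeR adjusted p = 0.0846). B2_Mm2, the third of the B2_Mm subfamilies, overlapped between the genotypes, with a log2 fold change of 0.04 (SE 0.11).

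A call here is an edgeR adjusted p of at most 0.05. It was reached by 13.2% of all 18400 genes and repeats as higher and by 12.9% as lower in cKO spermatocytes. SINEs had a median log2 fold change of -0.05, beside -0.01 over all features. At an unadjusted p under 0.05, 2 SINE subfamilies were higher and 0 lower with edgeR, and DESeq2 also called 1 higher and 0 lower. The 16 B1 subfamilies lay between -0.24 and 0.02, the 4 B4 subfamilies between -0.09 and -0.06 and the 6 old SINEs between -0.15 and 0.21, with no call. Library 1 of the cKO spermatocytes was the lowest of all 6 libraries for 30 of 35 subfamilies, at 1.61% of counts on SINEs beside 2.19% and 2.2% in the other cKO libraries. Without it, 2 subfamilies were called, B2_Mm1t joining with 0.30 (edgeR adjusted p = 0.0332). The call of B2_Mm1a was lost without control library 3 (0.33, edgeR adjusted p = 0.0651) or cKO library 3 (0.33, edgeR adjusted p = 0.0528).

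Repeats can also be scaled among themselves, which asks whether a SINE changed relative to other repeats rather than relative to all RNA. In spermatocytes this called 0 of 35 SINE subfamilies (edgeR; 2 higher and 0 lower at an unadjusted p under 0.05), against 4.17% of 1079 repeats higher and 2.78% lower. The value of B2_Mm1a hardly moved, at 0.34, but its adjusted p was 0.0815 with edgeR.

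In round spermatids, 15 of 35 SINE subfamilies were lower in cKO and 0 higher when genes and repeats were scaled together (edgeR). The lower ones were 4 of 4 B4 subfamilies, 5 of 6 old SINEs, 5 of 16 B1 subfamilies, 1 of 4 ID subfamilies and 0 of 5 B2 subfamilies. Over all 18577 features, 33.2% were lower and 37.9% higher. SINEs had a median log2 fold change of -0.34, beside 0.10 over all features and -0.43 over the 1050 other repeats, of which 434 were lower and 31 higher. Without cKO library 3 the medians were -0.16 for SINEs and -0.25 for the other repeats. At an unadjusted p under 0.05, 0 SINE subfamilies were higher and 19 lower, and DESeq2 called 0 higher and 27 lower. None reached a log2 fold change of 1.5 in size in this or any other comparison.

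AmnSINE1 had the largest fall, followed by MIRb. AmnSINE1, a remnant conserved across mammals, had normalized counts of 3519, 3869 and 3515 in control and 2514, 2433 and 2345 in cKO round spermatids. The groups were well apart, with a log2 fold change of -0.58 (SE 0.08, edgeR adjusted p = 0.000243). MIRb had 23749, 22482 and 25469 in control and 18553, 18403 and 13616 in cKO, a change of -0.50 (SE 0.12, edgeR adjusted p = 0.00572). MIR3 fell by 0.49 on the log2 scale, MIRc by 0.43 and MIR by 0.41, each with groups that did not overlap. AmnSINE2, the sixth old SINE, overlapped between genotypes at -0.19 (SE 0.31).

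The B4 subfamilies, whose members fuse tRNA-like and B1-like parts, had similar log2 fold changes. B4 itself had 33878, 31816 and 34985 in control and 27745, 26421 and 18368 in cKO, a log2 fold change of -0.47 (SE 0.14, edgeR adjusted p = 0.0167). RSINE1 had 67789, 64901 and 71016 in control and 55903, 53416 and 38199 in cKO, a change of -0.47 (SE 0.13, edgeR adjusted p = 0.0134). B4A was at -0.46 and ID_B1 at -0.38. In both series of values the cKO libraries lay below the control libraries, and cKO library 3 lay far below the others. Among ID elements, relatives of BC1, the subfamily ID fell by 0.50 (SE 0.16, edgeR adjusted p = 0.0247). ID2, ID4 and ID4_ ranged from -0.35 to -0.26 without a call.

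PB1D7 (-0.44), B1F2 (-0.43), B1F (-0.42), B1_Mur2 (-0.39) and PB1 (-0.38) were the B1 subfamilies called lower. The young B1_Mm was at -0.29 (SE 0.14) with an edgeR adjusted p of 0.0932, and PB1D9 was the B1 subfamily nearest to 0, at -0.17. B2_Mm1a had 15659, 12551 and 12225 in control and 16668, 17692 and 12178 in cKO round spermatids. Its groups overlapped, with cKO library 3 as low as the controls, and the log2 fold change was 0.20 (SE 0.15, edgeR adjusted p = 0.254). B2_Mm1t was at 0.05 (SE 0.13), B2_Mm2 at -0.22, and B3 and B3A at -0.29 and -0.31.

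A single library weighed on these values. Round spermatid cKO library 3 was the lowest of the 6 libraries for 35 of 35 SINE subfamilies, with 1.24% of counts on SINEs beside 1.75% and 1.89% in the other cKO libraries and 1.36 to 1.43% in controls. Without it, B2_Mm1a was the 1 subfamily called higher, at 0.38 (edgeR adjusted p = 0.0212). The count of lower subfamilies was 9 without control library 1 and 8 without control library 3, with 8 and 19 the extremes over all 6 omissions. The calls of ID and B4A were lost without control library 1 (edgeR adjusted p = 0.0576 and 0.0519) or control library 3 (0.0715 and 0.0685). Those of ID_B1 and PB1 were lost without either of these or without cKO library 3, where their log2 fold changes were -0.20 and -0.19. PB1D7, B1F2, B1F, B1_Mur2 and MIRc were not followed through the omissions.

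The direction in round spermatids also depended on the scale. When repeats were scaled among themselves, 14 of 35 SINE subfamilies were higher in cKO and 0 lower (edgeR; 15 and 0 at an unadjusted p under 0.05), against 13.9% of 1085 repeats higher and 14.7% lower. The 14 were 5 of 5 B2, 7 of 16 B1 and 2 of 4 ID subfamilies. B2_Mm1a led them at 0.65 (edgeR adjusted p = 0.00188), followed by B2_Mm1t at 0.50 (edgeR adjusted p = 0.00193). The B4 subfamilies lay between -0.03 and 0.07 and the old SINEs between -0.10 and 0.25, with no call in either family. The share of repeat counts on SINEs was 30.2 to 30.6% in control libraries and 31.7 to 33.7% in cKO libraries.

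With library size as the only scale, 5 SINE subfamilies were higher and 0 lower (edgeR; 5 and 0 at an unadjusted p under 0.05), and the median of SINEs was 0.22. The 5 were B2_Mm1a, B2_Mm1t, B1_Mur3, PB1D9 and PB1D11. That scale moved the median of all features by 0.555, to 0.65, with 55.5% of features higher and 17.9% lower. B2_Mm1a was at 0.76 on that scale (edgeR adjusted p = 0.00174). A change of scale moves all subfamilies by nearly the same amount, so their order adds no separate support.

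**Figure D1:**
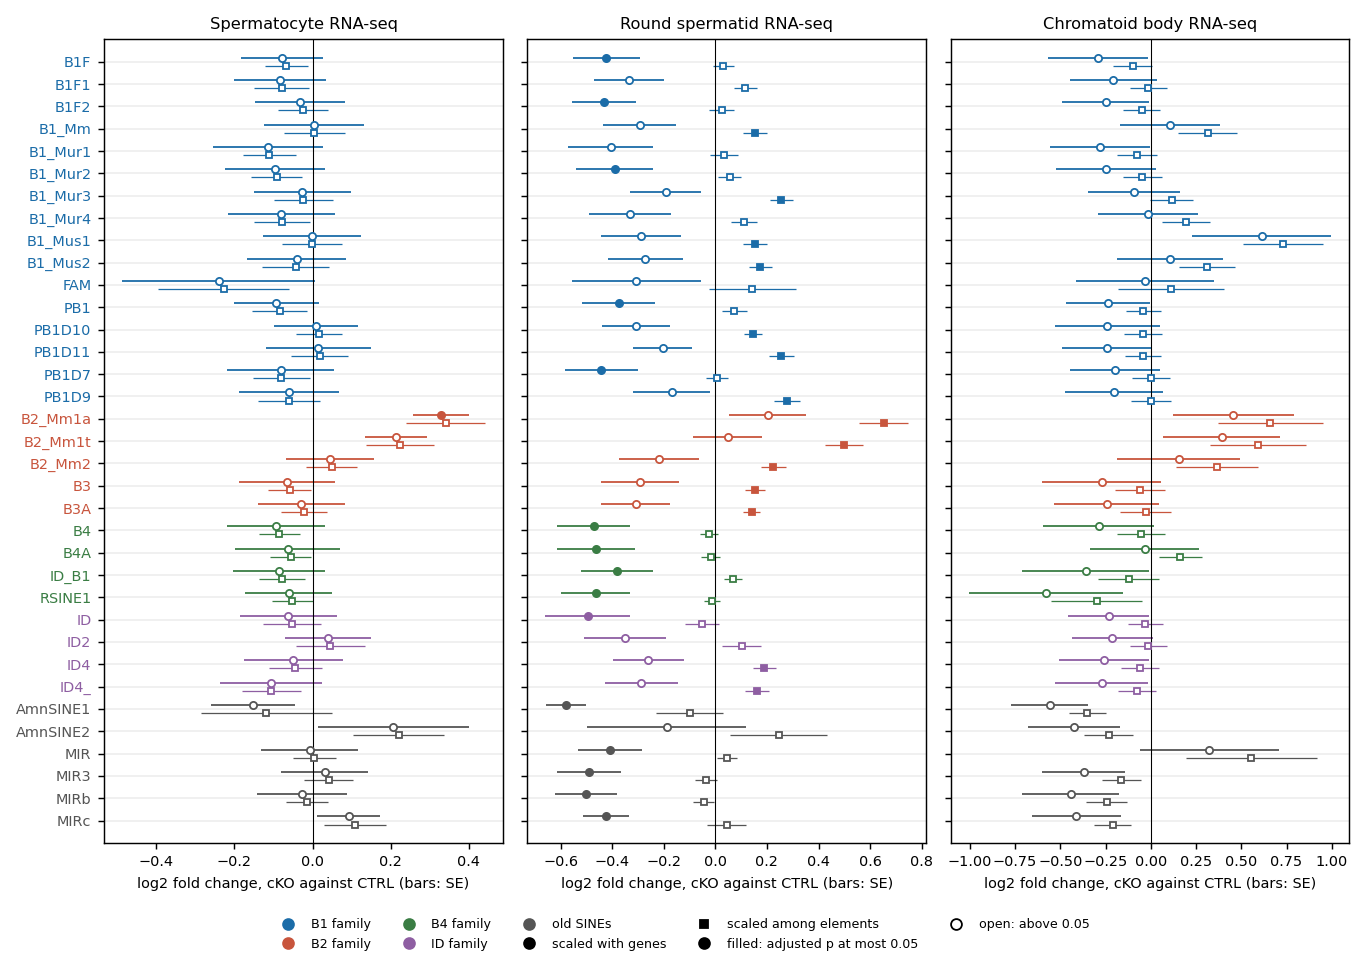
Log2 fold change of each SINE subfamily in Smg6-cKO against control, in spermatocytes, round spermatids and CBs, with bars of 1 SE; circles are scaled with genes and squares among repeats, colors mark the families, and filled symbols passed an adjusted p of 0.05. In round spermatids the circles lie between -0.58 and 0.20 and the squares to their right, and B2_Mm1a is the one filled circle in spermatocytes.

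In CBs, 0 of 35 SINE subfamilies were called between genotypes (edgeR; 0 higher and 1 lower at an unadjusted p under 0.05; DESeq2 0 and 0). Over 15155 features 15.2% were called higher and 17.5% lower. In simulated CB data 0 of 100 features changed by a log2 fold of 0.5 were recovered. The lack of calls therefore does not show equal levels. The median of SINEs was -0.24, beside 0.01 over all features and -0.20 over the other repeats. It was -0.08 without control library 2 and -0.08 without cKO library 3. AmnSINE1 came nearest to a call. Its normalized counts were 433, 667, 439 and 411 in control and 403, 288 and 299 in cKO CBs, which did not overlap, and the log2 fold change was -0.56 (SE 0.21, edgeR adjusted p = 0.0594). The other 34 subfamilies overlapped between genotypes. Scaled among repeats the count was also 0 (edgeR; 2 higher and 1 lower at an unadjusted p under 0.05), with 7.16% of 1104 repeats higher and 2.54% lower. With library size only it was 0 again (0 and 1 at an unadjusted p under 0.05), with 10.2% of features higher and 18.4% lower and the median of all features moved by -0.14.

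Single CB libraries stood out for single subfamilies. B1_Mus1, a young B1 subfamily, had 95480 in cKO library 1, beside 48361 and 30333 in the other cKO libraries and 37372, 48887, 36986 and 28557 in controls. MIR had 32374 in cKO library 2, beside 13654 and 9011 in the other cKO libraries and 13332, 20132, 11836 and 13292 in controls. RSINE1 had 165366 in control library 2, beside 66332, 55489 and 56634 in the other controls and 66338, 54118 and 51929 in cKO. MIRb, a close relative of MIR, had 10786 in cKO library 2, and B4, a relative of RSINE1, had 52872 in control library 2. Control library 2 was the highest control library for 35 of 35 subfamilies and the highest of all 7 for 28, with SINEs at 12.6% of its counts. The log2 fold changes of B1_Mus1 (0.61, SE 0.38), MIR (0.32, SE 0.38) and RSINE1 (-0.58, SE 0.43) each came with 1 library far above the rest, and none passed the threshold.

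B2_Mm1a and B2_Mm1t had the highest log2 fold changes of the B2 subfamilies in CBs, neither past the threshold. B2_Mm1a had 7438, 10941, 9541 and 5470 in control and 11253, 17066 and 6058 in cKO CBs. The cKO libraries included both the highest and nearly the lowest value, and the log2 fold change of 0.46 had an SE of 0.34 (edgeR adjusted p = 0.318). B2_Mm1t was at 0.39 (SE 0.32) and B2_Mm2 at 0.15 (SE 0.34).

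**Figure D2:**
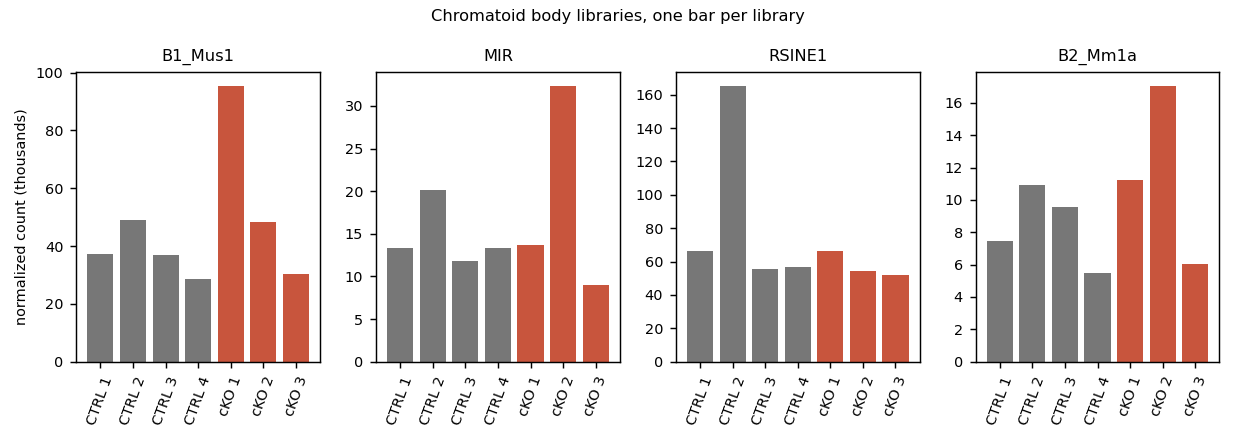
Normalized counts (axis divided by 1000) of B1_Mus1, MIR, RSINE1 and B2_Mm1a in each CB library, 1 bar per library, with controls in grey and cKO in red. B1_Mus1 reaches 95480 in cKO library 1, MIR 32374 in cKO library 2 and RSINE1 165366 in control library 2, each far above the other libraries.

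The design also compares the stages. From control spermatocytes to control round spermatids, 9 of 35 SINE subfamilies fell and 4 rose (edgeR, genes and repeats scaled together), against 38.8% of 18116 features lower and 36% higher. The SINE median was -0.12, beside -0.05 over all features and 0.39 over the other repeats. The risers were 4 of 6 old SINEs and no others, and the fallers were 6 of 16 B1, 2 of 5 B2 and 1 of 4 ID subfamilies. MIR3 had 10058, 9037 and 8950 in spermatocytes and 11756, 11183 and 11817 in round spermatids, a log2 fold change of 0.31 (SE 0.08, edgeR adjusted p = 0.00764). MIRc rose by 0.30, AmnSINE1 by 0.28 and MIRb by 0.24.

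PB1D9, an ancestral B1-type subfamily, fell most in that comparison. It had 20224, 19769 and 19223 in control spermatocytes and 14388, 13152 and 14089 in control round spermatids, a log2 fold change of -0.51 (SE 0.07, edgeR adjusted p = 0.000468). B1_Mur3 was at -0.42 (SE 0.07, edgeR adjusted p = 0.00156) and B1_Mus2 at -0.34 (SE 0.07, edgeR adjusted p = 0.00261). B1_Mus1, B1_Mur4 and B1F1 were at -0.24, -0.23 and -0.22, B2_Mm1t at -0.23, B2_Mm2 at -0.20 and ID4_ at -0.19. All of them had groups that did not overlap, which was not counted over all features. The 4 B4 subfamilies lay between -0.16 and 0.06 with no call.

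Here too the scale set the direction of the old SINEs. Among repeats, 29 of 35 subfamilies were lower in control round spermatids and 0 higher (edgeR; 29 and 0 at an unadjusted p under 0.05), against 25.6% of 1070 repeats lower and 26.3% higher. The median of SINEs was then -0.47. MIR3, MIRc, MIRb and AmnSINE1 were at -0.04, -0.05, -0.11 and -0.07 without a call. PB1D9 was at -0.86 and B1_Mur3 at -0.77. By library size only, 30 were lower and 0 higher (edgeR; 30 and 0 at an unadjusted p under 0.05), with 51.4% of features lower and 25% higher and the median of all features at -0.47. The share of repeat counts on SINEs was 36.3 to 38.6% in control spermatocytes and 30.2 to 30.6% in control round spermatids. On the scale with genes, the count of 9 lower subfamilies was 3 without control round spermatid library 2 or 3 and 4 with DESeq2, and the count of 4 risers was 2 without control spermatocyte library 2. The call of MIRb was lost without any of 4 of the 6 libraries (edgeR adjusted p = 0.0665 to 0.154), and that of AmnSINE1 without control round spermatid library 2 (0.0786) or control spermatocyte library 2 (0.106). Among the lower ones, B2_Mm1t was lost without any of 4 libraries, B2_Mm2 without any of 3 and B1_Mus1 without either of 2.

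Between cKO round spermatids and cKO spermatocytes, 12 of 35 SINE subfamilies fell and 0 rose (edgeR; 23 and 0 at an unadjusted p under 0.05; DESeq2 14 and 0), against 25.4% of 18779 features lower and 18% higher. The median was -0.43, beside 0.00 over all features. The same B1 subfamilies led. PB1D9 had 17888, 25067 and 24634 in cKO spermatocytes and 16362, 15705 and 10815 in cKO round spermatids, a log2 fold change of -0.66 (SE 0.19, edgeR adjusted p = 0.0239). B1_Mur3 was at -0.62 (SE 0.17) and B1_Mus2 at -0.61 (SE 0.18). The old SINEs ranged from -0.40 to -0.19 with 0 calls. Among repeats 26 were lower and 0 higher, against 18.8% of 1070 repeats lower and 17.7% higher. With library size only the count was 0 lower and 0 higher (edgeR; 4 and 0 at an unadjusted p under 0.05), with 19.3% of features lower and 24.2% higher and the median of all features moved by 0.15. Leaving out cKO spermatocyte library 2 or 3 left 0 lower, leaving out cKO round spermatid library 3 left 3, and without cKO round spermatid library 1 or cKO spermatocyte library 1 there were 5 and 7.

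**Figure D3:**
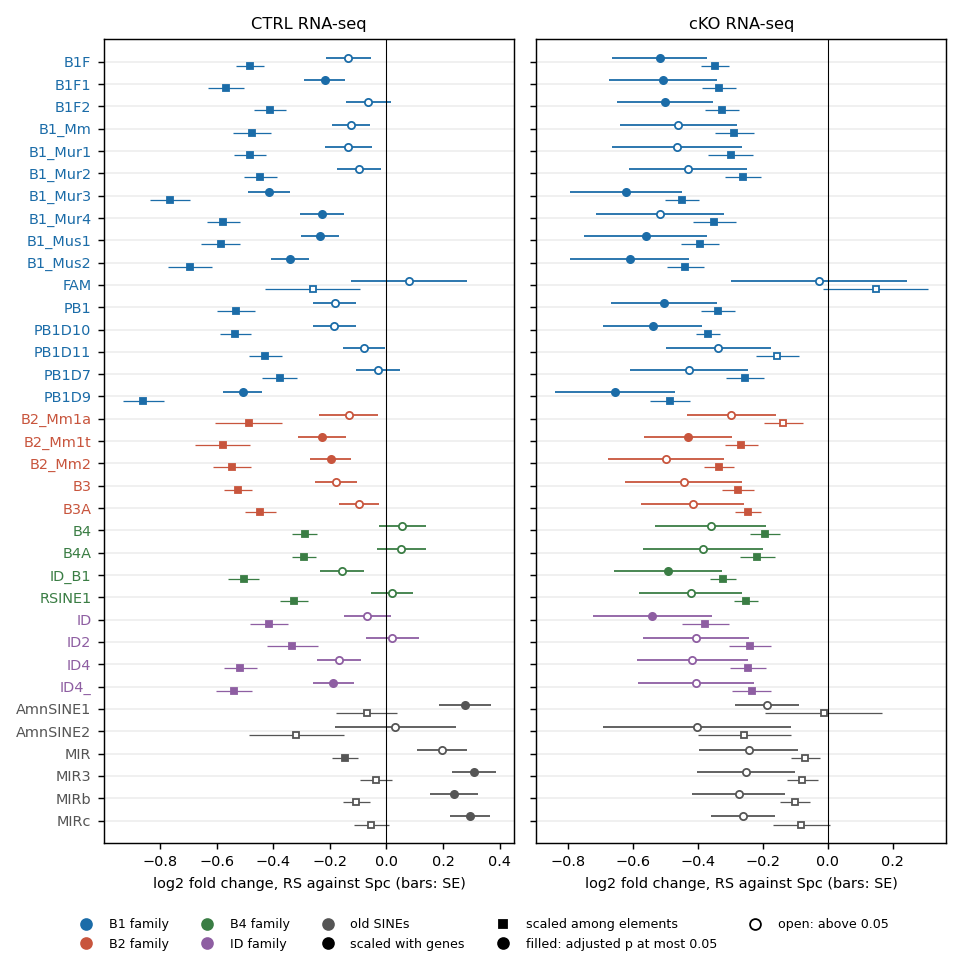
Log2 fold change of each SINE subfamily in round spermatids against spermatocytes, in control (left) and cKO (right), with bars of 1 SE and symbols as in the genotype plot. In control 4 of 6 old SINEs are the filled circles right of 0 (0.24 to 0.31), and among repeats nearly all B1, B2, B4 and ID squares are filled and left of 0.

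Whether the genotype effect differed between stages was tested directly. The difference (cKO effect in round spermatids minus that in spermatocytes) was below 0 for 7 of 35 subfamilies and above 0 for none (edgeR; 14 and 0 at an unadjusted p under 0.05; DESeq2 4 and 0), against 21.1% of 19241 features below and 19.3% above. The 7 were 5 of 6 old SINEs, RSINE1 and B1F2. MIR3 had a difference of -0.63 (SE 0.18, edgeR adjusted p = 0.016), MIRc of -0.63 (SE 0.12, edgeR adjusted p = 0.00261) and MIRb of -0.59 (SE 0.18, edgeR adjusted p = 0.0208). In levels scaled over all 12 libraries, MIR3 was at 9269 to 10263 in control and 9118 to 11275 in cKO spermatocytes, and at 12279 to 13360 in control and 7243 to 10110 in cKO round spermatids. On this scale every control round spermatid library lay above every control spermatocyte library, whereas the cKO groups overlapped. Scaled among repeats, 0 of 35 differences passed (edgeR; 12 above and 0 below 0 at an unadjusted p under 0.05), against 1.68% of 1070 repeats above and 1.78% below. By library size only 0 passed in either direction (0 and 0 at an unadjusted p under 0.05), with 41.7% of features above and 2.86% below and the median of all features moved by 0.64. Without replicate 3 of each group 0 differences passed, and without replicate 2 there was 1. These differences share control libraries with the genotype and stage comparisons.

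Small RNA reads on SINEs were compared in the same way, scaled among repeats. In spermatocytes 10 of 34 tested subfamilies were higher in cKO and 11 lower (edgeR), against 22.6% of 810 repeats higher and 23.7% lower. FAM, an ancestral B1-type subfamily, lacked a count in at least 1 library and was not tested. The median was 0.06, beside 0.08 over all repeats. The lower ones were 4 of 6 old SINEs, 3 of 4 B4, 2 of 5 B2, 1 of 15 B1 and 1 of 4 ID subfamilies, and the higher ones were 7 of 15 B1, 2 of 4 ID and 1 of 5 B2 subfamilies.

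Small RNA on MIR, MIRb, MIRc and MIR3 was lower in cKO spermatocytes. MIR3 had 14951, 14468, 14808, 14937 and 14980 in control and 10317, 11250, 11013, 12027 and 11482 in cKO libraries. The groups were well apart, with a log2 fold change of -0.40 (SE 0.04, edgeR adjusted p = 4.79e-06). MIRc was at -0.34 (SE 0.04, edgeR adjusted p = 2.01e-05), MIRb at -0.25 and MIR at -0.16. B1F1 stood apart from the other B1 subfamilies. It had 4254, 4248, 4118, 4700 and 4764 in control and 3291, 3440, 3492, 3162 and 3238 in cKO, a change of -0.41 (SE 0.05, edgeR adjusted p = 2.89e-05). B4 was at -0.27, RSINE1 at -0.22, B4A at -0.11, B2_Mm2 at -0.19, B3A at -0.14 and ID4_ at -0.21. The call of B4A was lost without any of 7 of the 10 libraries, at adjusted p values of 0.0587 to 0.156 with edgeR.

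Small RNA on 7 B1 subfamilies, ID2, ID and B2_Mm1a was higher in cKO spermatocytes. PB1D9 had 1843, 1843, 1730, 2144 and 2189 in control and 2529, 3146, 2352, 2599 and 2518 in cKO spermatocytes, with no overlap and a log2 fold change of 0.43 (SE 0.09, edgeR adjusted p = 0.000954). PB1D11 was at 0.39 (SE 0.08, edgeR adjusted p = 0.000862), ID2 at 0.36 (SE 0.12, edgeR adjusted p = 0.0245) and PB1 at 0.33. ID, B1_Mur2, PB1D7, PB1D10 and B1_Mur1 lay between 0.22 and 0.28. B2_Mm1a had 377, 390, 311, 434 and 354 in control and 417, 348, 520, 504 and 581 in cKO. Its groups overlapped, with cKO libraries 1 and 2 among the controls, and the log2 fold change of 0.35 (SE 0.13) barely passed (edgeR adjusted p = 0.0418). That call was lost without any of 6 of the 10 libraries, at adjusted p values of 0.0616 to 0.0942 with edgeR. The call of ID2 was lost without cKO library 4 (0.29, edgeR adjusted p = 0.0597) or cKO library 5 (0.30, edgeR adjusted p = 0.0555).

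In round spermatids, 5 of 34 tested subfamilies had more small RNA in cKO and 7 less (edgeR), against 13.4% of 850 repeats higher and 15.1% lower. AmnSINE2 lacked a count in at least 1 library and was not tested. The median was 0.02, beside 0.11 over all repeats. B2_Mm1a rose most. It had 273, 265 and 306 in control and 422, 688 and 539 in cKO libraries, with no overlap and a log2 fold change of 0.96 (SE 0.18, edgeR adjusted p = 0.0066). ID2 had 254, 260.5 and 274 in control and 397, 390.5 and 370 in cKO, a change of 0.55 (SE 0.11, edgeR adjusted p = 0.00776). AmnSINE1 was at 0.50 on low counts, 61.5 to 66.7 in control and 87.3 to 92.4 in cKO. PB1 was at 0.33 and B1_Mur2 at 0.29.

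The lower ones in round spermatids were 4 MIR elements, B4, RSINE1 and B2_Mm2. MIR3 had 16639, 16783 and 16748 in control and 11260, 10594 and 12045 in cKO, a log2 fold change of -0.57 (SE 0.06, edgeR adjusted p = 0.000481). MIRb was at -0.46 (SE 0.06, edgeR adjusted p = 0.00151), MIRc at -0.42 (SE 0.04, edgeR adjusted p = 0.000442) and MIR at -0.30. For each of these 4 every cKO library lay below every control library. B4 was at -0.42, RSINE1 at -0.25 and B2_Mm2 at -0.27.

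All 7 subfamilies lower in round spermatids were lower in spermatocytes too, and B2_Mm1a, ID2, PB1 and B1_Mur2 were higher in both. AmnSINE1 was called higher in round spermatids only. The share of all repeats called alike in both cell types was not counted, so this sharing is a description. When small RNA was scaled on piRNA clusters, B2_Mm1a did not pass in spermatocytes (0.34, edgeR adjusted p = 0.0647) and PB1 did not pass in round spermatids (0.36, edgeR adjusted p = 0.0712). These cell types came from separate libraries, but whether these came from separate mice is not known here. Several of the round spermatid calls were lost when 1 library was left out. ID2 was lost without control library 1 (0.50, edgeR adjusted p = 0.0594) or control library 2 (0.54, edgeR adjusted p = 0.0535), RSINE1 without control library 2 or 3, and PB1 and B2_Mm2 without any control library or cKO library 1. Without round spermatid cKO library 2, 11 subfamilies were higher and 11 lower. The higher count was 1 without control library 1 or control library 2, 2 without control library 3 and 3 without cKO library 3. By library size only, 19 subfamilies were higher and 3 lower in spermatocytes, against 37.9% of repeats higher and 14.3% lower, and 17 were higher and 2 lower in round spermatids, against 27.8% higher and 8% lower. That scale shifted the median of all repeats by 0.19 in spermatocytes and 0.26 in round spermatids. MIR3 and MIRc stayed below 0 in both cell types on that scale, at -0.21 and -0.15 in spermatocytes and -0.31 and -0.16 in round spermatids.

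Between the stages, 12 of 33 tested subfamilies had less small RNA in control round spermatids than in control spermatocytes and 4 had more (edgeR), against 19.6% of 815 repeats lower and 17.9% higher. B2_Mm1a had 416, 430, 342, 473 and 393 in control spermatocytes and 257, 253 and 287 in control round spermatids, a log2 fold change of -0.61 (SE 0.10, edgeR adjusted p = 0.000236). ID2 was at -0.48 (SE 0.08, edgeR adjusted p = 0.000234), AmnSINE1 at -0.43 and B1_Mus1 at -0.42 (SE 0.05, edgeR adjusted p = 2.62e-05). B1F2 (0.40), PB1D9 (0.31), MIRb (0.17) and MIRc (0.15) were higher in round spermatids. The call of B1F2 was lost without round spermatid library 2 (0.37, edgeR adjusted p = 0.0752) or library 3 (0.21, edgeR adjusted p = 0.192). In RNA-seq of the same stages PB1D9 had the opposite sign, as had B1F2, without a call and with overlapping groups. MIRb and MIRc had the same sign when scaled with genes.

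In cKO mice 0 of 34 subfamilies differed in small RNA between the stages (edgeR; 0 higher and 2 lower at an unadjusted p under 0.05; DESeq2 0 higher and 0 lower), against 0% of 852 repeats higher and 0% lower. B2_Mm1a was at 372, 609 and 478 in cKO round spermatids and 423, 354, 528, 521 and 590 in cKO spermatocytes. These groups overlapped, with a log2 fold change of 0.01 (SE 0.19). Whether the stage difference itself differed between genotypes was not tested for small RNA.

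Shares within SINE counts do not depend on the scale, and they are given as descriptions. B2_Mm1a took 1.66 to 1.88% of SINE counts in control and 2.21 to 2.59% in cKO spermatocytes. It took 1.53 to 2.00% in control and 2.43 to 2.67% in cKO round spermatids, and 0.827 to 1.37% and 1.01 to 2.26% in CBs. In small RNA its share was 0.116 to 0.159% in control and 0.141 to 0.236% in cKO spermatocytes, and 0.0843 to 0.0967% and 0.154 to 0.267% in round spermatids. The genotypes overlapped in CBs and in small RNA of spermatocytes and were apart in the other comparisons. The old SINEs took 9.84 to 10.2% of SINE RNA counts in control and 8.99 to 9.98% in cKO round spermatids, and 7.75 to 8.02% and 7.86 to 8.53% in spermatocytes. Among small RNA reads on SINEs they took 47.3 to 47.8% in control and 40.8 to 41.5% in cKO round spermatids, and 42.9 to 45.3% and 38.2 to 42.2% in spermatocytes. Both small RNA comparisons were free of overlap.

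**Figure D4:**
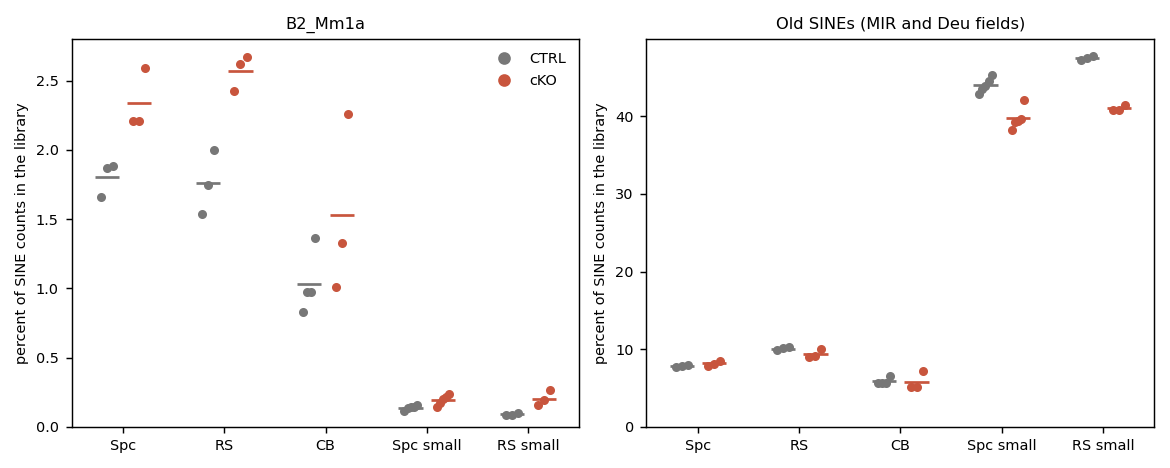
Percent of SINE counts in each library that fell on B2_Mm1a (left) and on the 6 old SINEs (right), with controls in grey, cKO in red and a line at the mean of each group; Spc, RS and CB are RNA-seq and the last 2 groups small RNA-seq. B2_Mm1a is higher in every cKO library of spermatocytes and round spermatids, and the old SINEs are lower in every cKO small RNA library.

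Genes that make, bind or process SINE RNA, or act on chromatin at SINEs, were followed as well. Of 50 listed genes 49 were tested in spermatocytes and round spermatids and 47 in CBs. In cKO spermatocytes 9 were higher and 2 lower, with 13.2% and 12.9% of all features called so. In cKO round spermatids 30 were higher and 9 lower, with 37.9% and 33.2% of all features. In cKO CBs 10 were higher and 1 lower, with 15.2% and 17.5% of all features. The medians of the list were 0.08, 0.37 and 0.37 in that order, beside -0.01, 0.10 and 0.01 over all features. Among the 11 polymerase III subunits, 7 were higher and 1 lower in cKO round spermatids, with a median log2 fold change of 0.54, to be read against the same 37.9%, 33.2% and median of 0.10. Among the 12 polymerase III factors, 8 were higher and 3 lower, with a median of 0.50. Most of these place the enzyme on its promoters, but Maf1, a repressor of polymerase III, was among the higher ones at 0.37 (SE 0.08). The 6 signal recognition particle proteins, which include binders of B1-like RNA, had 2 higher and 3 lower and a median of -0.08, and among them Srp9 was at -0.45 (SE 0.07) and Srp14 at 0.17 (SE 0.14). Of 9 tested genes that bind or process SINE RNA 5 were higher and 1 lower, with a median of 0.89, and of 11 chromatin genes 8 were higher and 1 lower, with a median of 0.25. The genes named next were chosen after their values were seen. In cKO round spermatids Gtf3c4, a subunit of the factor that binds the tRNA-type promoter, was at 1.98 (SE 0.09), Upf1, an NMD helicase that also takes part in Staufen-mediated decay, at 2.18 (SE 0.11), and Dnmt1, the maintenance DNA methyltransferase, at 2.33 (SE 0.12). Adnp, part of a complex that binds B2 elements, was at 1.06 (SE 0.06). Suv39h2, a histone methyltransferase of male germ cells, was at -1.24 (SE 0.17) and Adarb1, an RNA-editing enzyme, at -0.83 (SE 0.11).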

How the data were processed

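Per the labels, poly(A) RNA of spermatocytes and round spermatids and total CB RNA were aligned with STAR 2.7.1a to GRCm38, and the authors counted genes and repeats with TEtranscripts, which shares multimapping reads among repeat copies. These deposited values are whole counts. Small RNA was aligned by the authors with HISAT2 2.1.0, and the deposited repeat values, made by the authors with featureCounts 2.0.1, are estimated counts that need not be whole and were rounded here. Counts were analysed with the edgeR 4.0.16 quasi-likelihood test (TMM scaling) in R 4.3.3, on genes (at least 10 counts in 3 libraries) and repeats (at least 10 counts in total) together, on repeats alone and with library size only. Small RNA repeats needed a count in every library, and p-values were adjusted over all features tested. SE is the absolute log2 fold change divided by the root of F. DESeq2 1.42.0, another count filter, a replicate block, scaling of small RNA on piRNA clusters and leaving out each library (for the interaction, each replicate number) were the alternatives. The scripts were tested on simulated data with 100 changed features per comparison. At a log2 fold of 0.5, the genotype fit of CBs recovered 0, that of spermatocytes 1 and that of round spermatids 3. Each RNA-seq stage fit recovered 1, and the small RNA fits 22 to 54. At a log2 fold of 1, the RNA-seq fits recovered 19 to 53. A missing call at such sizes therefore does not show that a level was unchanged. Recovery was not measured for SINEs alone. Members, lists and named subfamilies (the largest changes past the threshold in each comparison and fixed anchors of each family, with other called subfamilies named after their values were seen) were chosen with earlier results of these data known. No pair of libraries within a group agreed within sampling noise. Intervals and SEs do not cover the sharing of reads among near-identical copies.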

Additional observations from a re-analysis of the deposited data

Results flagged for a closer look

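Values of a single library lay far from the rest of their group in 6 of 61 tests by Dixon's criterion, which chance alone passes in about 1 of 20. In control CB library 2, RSINE1 had a normalized count of 165366 beside a group median of 61483 (gap over range 0.901), B4 had 52872 beside 30437 (0.863) and MIR3 had 8919 beside 6184 (0.835). In cKO spermatocyte small RNA library 2, B3 had 23286 beside 25172 (0.775), B4A had 15867 beside 14724 (0.769) and MIRb had 33511 beside 31132 (0.712).

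Scaled with genes and over all libraries, the genotype effect differed between stages for 7 subfamilies, of which 5 belong to those followed by rule in this comparison and are given here (AmnSINE1 and B1F2 are the others). The effect in round spermatids minus that in spermatocytes was -0.63 for MIR3 (edgeR adjusted p = 0.016), -0.63 for MIRc (0.00261), -0.59 for MIRb (0.0208), -0.51 for MIR (0.0447) and -0.52 for RSINE1 (0.0444). Scaled among repeats, the edgeR adjusted p values were 0.731, 0.9, 0.962, 0.635 and 0.674 in the same order. By library size only, none of the 5 passed. Without replicate 2 of each group, RSINE1, MIR, MIRb and MIR3 did not pass (edgeR adjusted p = 0.159, 0.148, 0.0924 and 0.0741), at differences of -0.52, -0.54, -0.61 and -0.68. Without replicate 3 none of the 5 passed, with edgeR adjusted p values of 0.0688 to 0.401, and the differences were smaller, at -0.25 for RSINE1, -0.23 for MIR, -0.33 for MIRb, -0.38 for MIR3 and -0.44 for MIRc.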

How the results depend on the processing

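Counts are of SINE subfamilies called by edgeR unless DESeq2 is named. Scaled among repeats, 0 were higher in cKO spermatocytes, 14 higher and 0 lower in cKO round spermatids, 0 higher and 29 lower between control stages, 26 lower between cKO stages, and 0 interactions were below 0. By library size only these were 5 higher and 0 lower in round spermatids, 0 higher and 30 lower between control stages, 0 lower between cKO stages, 0 for the interaction, 19 higher and 3 lower in spermatocyte small RNA, and 17 higher and 2 lower in round spermatid small RNA. DESeq2 called 27 lower in round spermatids, 4 lower between control stages and 4 interactions. Without a count filter 1 was lower in CBs, 6 between cKO stages and 4 for the interaction, and with 10 counts in total 3 were higher in round spermatid small RNA. Leaving out each library in turn gave 0 to 2 higher in spermatocytes, 0 to 1 higher and 8 to 19 lower in round spermatids, 0 to 1 lower in CBs (1 without cKO library 1), 2 to 5 higher and 3 to 10 lower between control stages, 0 to 9 lower between cKO stages, 8 to 14 higher and 9 to 11 lower in spermatocyte small RNA, 1 to 11 higher and 5 to 11 lower in round spermatid small RNA, 3 to 5 higher and 9 to 12 lower between control stages in small RNA, and 0 between cKO stages in small RNA. For the interaction, replicate 1, 2 or 3 was left out of all 4 groups at once, which gave 0 to 9 below 0. Scaled on small RNA counts of piRNA clusters, spermatocytes had 9 higher and 11 lower, round spermatids 4 higher and 7 lower, and the control stages 4 higher and 17 lower. The cause of these changes was not tested. The log2 fold changes of the anchors and of the largest calls changed sign with at least 1 of both values past the threshold in 49 cases, listed next. They changed sign with neither value past it in 63 further cases, and in 69 cases with 1 library left out. MIRc in round spermatids, called lower and not in that set, was at 0.04 among repeats and 0.13 by library size. PB1D7, B1F2, B1F and B1_Mur2, also called lower there and not in that set, changed sign too. Among repeats all B1 subfamilies lay between 0.006 and 0.28. In round spermatids among repeats the listed cases were B1_Mm 0.15, B1_Mus1 0.15, B1_Mus2 0.17, B2_Mm2 0.22, B3 0.15, B3A 0.14, ID_B1 0.067, ID4 0.19, PB1 0.0729 and MIR 0.0452, and by library size B4 0.0843, B4A 0.094, RSINE1 0.0916, ID_B1 0.174, PB1 0.181, MIR 0.147, MIRb 0.0536, MIR3 0.0651 and ID 0.0618. Between control stages they were, among repeats and by library size, B4 -0.29 and -0.36, B4A -0.29 and -0.36, RSINE1 -0.33 and -0.40, MIR -0.15 and -0.22, MIRb -0.11 and -0.18, MIR3 -0.037 and -0.11, MIRc -0.0545 and -0.12, and AmnSINE1 -0.0704 and -0.14. For the interaction they were RSINE1 0.0593 and 0.12 and MIR 0.0624 and 0.12, and by library size MIRb 0.0491, MIR3 0.0025 and MIRc 0.0089. In small RNA by library size they were B2_Mm2 0.0023, B3A 0.0492, B4A 0.0794, ID4 0.18 and MIR 0.0301 in spermatocytes and B3A 0.17 and RSINE1 0.0117 in round spermatids.

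Replicate numbers showed no clear pairing in spermatocytes, where same-numbered deviations correlated at 0.14, -0.12 and 0.27, or in round spermatids (-0.11, -0.16 and 0.09). Between control stages the correlations were -0.17, -0.14 and -0.20. Between cKO stages they were -0.05, 0.57 and 0.28, so a pairing there stayed undecided. In that comparison the replicate block gave 4416 features higher and 5083 lower (edgeR), beside 3377 and 4767 without it. Of SINE subfamilies with the replicate block, 1 was higher in spermatocytes, 14 lower in round spermatids, 2 higher and 4 lower between control stages, 13 lower between cKO stages, and 4 interactions were below 0. No paired analysis was possible for CBs and small RNA because their columns carry no shared replicate numbers, and for the same reason the comparison of spermatocyte small RNA replicates 1 to 3 alone was not run. Small RNA counts of FAM and AmnSINE2 were too low for a statement on either, and CB values were limited by the spread between libraries.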
